A study of Homo sapiens with 8 samples.

Results

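The inhibitor of DNA binding genes ID1, ID2, ID3 and ID4 and the BMP feedback targets SMAD6, SMAD7, BAMBI and MSX2 were followed by RNA-seq through long-term culture of human embryonic stem cells (hESCs). These 8 genes were chosen by name, as classical transcriptional targets of BMP signalling, out of 60675 genes with a deposited value, and all 8 passed the filter on low counts. P1, P2, P3 and P4 hESCs are the established line H9 (WA09) at passages in the 40s, 100s, 200s and 300s, with 2 samples per line and 8 in all. Every line was grown without feeder cells on Matrigel in mTeSR1 medium and passaged with dispase, and no sample received a drug or a genetic modification. In the study P3 and P4 hESCs carry a copy number gain at 20q11.21, and P1 and P2 hESCs do not. The lines are 4 stages of 1 isogenic culture series, so that passage and gain cannot be told apart. The labels do not say whether the 2 samples of a line came from separate cultures, and p-values therefore measure only the spread between these samples, which may be technical.

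BMP ligands bind paired type I and type II receptor kinases, which phosphorylate SMAD1, SMAD5 and SMAD9, and these enter the nucleus with SMAD4 to switch on target genes. The ID genes are among the most direct of these targets. ID proteins have a helix-loop-helix domain but no DNA-binding region, and they hold E proteins such as TCF3 away from DNA. SMAD6, SMAD7 and BAMBI act back on the pathway as inhibitors, and MSX2 is a homeobox transcription factor that BMP induces in many embryonic tissues. In hESCs, added BMP is known to drive differentiation toward extraembryonic cell types.

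ID1 lies in 20q11.21, at chr20:31605283-31606515 on the forward strand of GRCh38 in the GENCODE annotation, close to BCL2L1 and TPX2. The other members lie on chromosomes 2 (ID2), 1 (ID3), 6 (ID4), 15 (SMAD6), 18 (SMAD7), 10 (BAMBI) and 5 (MSX2). ID2 overlaps ID2-AS1 on the opposite strand, and no other member overlaps an annotated gene. Whether the counting used the strand is not given in the sources used here, so reads of ID2 and ID2-AS1 may not have been told apart. To show how the start of ID1 compares with those of a family member and a feedback target elsewhere in the genome, the 250 bases before the RefSeq start of ID1 (chr20:31605039-31605288, forward strand), ID4 (chr6:19837120-19837369, forward strand) and SMAD6 (chr15:66701986-66702235, forward strand) are printed 5′ to 3′ from RefSeq, assembly GRCh38.p14. Capitals mark the motif TATAA, the core of a TATA box, and the palindrome GTCTAGAC, which holds the GTCT and AGAC letters known to be bound by SMAD proteins.
ID1: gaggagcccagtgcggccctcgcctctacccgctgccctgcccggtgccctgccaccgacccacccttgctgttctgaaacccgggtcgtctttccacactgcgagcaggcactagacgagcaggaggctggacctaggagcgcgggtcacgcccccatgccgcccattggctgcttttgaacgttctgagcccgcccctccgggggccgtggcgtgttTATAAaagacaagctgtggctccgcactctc
ID4: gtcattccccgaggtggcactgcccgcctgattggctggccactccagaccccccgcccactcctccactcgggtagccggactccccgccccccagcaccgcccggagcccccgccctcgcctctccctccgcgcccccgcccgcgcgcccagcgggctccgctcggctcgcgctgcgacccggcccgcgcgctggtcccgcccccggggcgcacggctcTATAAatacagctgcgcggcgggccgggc
SMAD6: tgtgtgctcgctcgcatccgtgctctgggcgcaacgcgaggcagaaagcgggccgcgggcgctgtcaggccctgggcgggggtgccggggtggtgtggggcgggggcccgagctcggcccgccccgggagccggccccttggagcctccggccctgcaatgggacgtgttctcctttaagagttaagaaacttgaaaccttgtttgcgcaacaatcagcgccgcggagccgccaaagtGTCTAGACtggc
TATAA, searched on the strand of the gene in the windows from 250 bases before to 50 bases after a RefSeq start, begins 31 bases before the start of ID1 and 29 bases before that of ID4. It also begins 29 bases before the start of ID3, 35 bases before 1 of the 3 SMAD7 starts and 245 bases before the MSX2 start, and it is not in the windows of ID2, SMAD6 and BAMBI. Of 35116 such windows 14.8% hold it. GTCTAGAC, which reads the same on both strands, is 12 bases before the start of SMAD6 and in 0.202% of the windows. GGCGCC, a GC-rich palindrome known to be bound by BMP-activated SMADs, has 3 matches in the BAMBI window and none in those of the other 7 genes, against 19.2% of all windows. A match describes the letters and is not evidence of a bound site. The ID2 and ID3 windows lie partly or wholly in exons of longer GENCODE transcripts and are not printed. The bases printed for ID1 and SMAD6 also end a few bases inside the GENCODE genes. These start at chr20:31605283 and chr15:66702228, and GTCTAGAC lies across the latter start.

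The libraries held 26874899 to 38095600 expected counts each. Mitochondrial genes took 5.89% to 18.5% of the counts and differed within lines, from 9.84% in replicate 1 to 18.5% in replicate 2 of P1, and from 18.4% to 7.53% in P3 and 17.2% to 5.89% in P4 hESCs in the same order. Markers of undifferentiated cells summed to 2903 to 4696 TPM (a level adjusted for transcript length and library size), and none of the 10, POU5F1 and NANOG among them, passed the test between P3 and P4 and P1 and P2 hESCs. Of 8 neuroectoderm markers all were under 1 TPM in every sample. The mesendoderm list of 8 genes summed to 3.23 to 7.69 TPM, and the fibroblast list, carried by COL1A1, COL1A2 and THY1, to 462 to 779 TPM.

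In TPM, ID3 was the most abundant member in P1 and P2 hESCs and ID1 in P3 and P4 hESCs. The level of ID1 was 179 and 228 TPM in P1, 259 and 297 TPM in P2, 118 and 132 TPM in P3, and 289 and 688 TPM in P4 hESCs. P3 hESCs were thus the lowest line although they carry the gain, and P4 hESCs overlapped with P2 hESCs in TPM. The level of ID3 was 263 and 329 TPM in P1, 439 and 493 TPM in P2, 64.3 and 103 TPM in P3, and 128 and 273 TPM in P4 hESCs. Its P3 samples lay below every sample of the other lines, and its P2 samples above them. ID2 was at 96.8 and 153 TPM in P1, 198 and 185 TPM in P2, 25.4 and 24.6 TPM in P3, and 58.5 and 156 TPM in P4 hESCs. ID4, the least abundant ID gene, was at 16.7 and 23.5 TPM in P1, 27.7 and 20.4 TPM in P2, 4.63 and 3.93 TPM in P3, and 11.1 and 16.7 TPM in P4 hESCs. For ID2, ID3 and ID4 the order from low to high was P3, P4, P1 and P2, in which P4 and P1 overlapped, and for ID4 P1 and P2 as well.

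SMAD7, which blocks the receptors of both the BMP and the TGFβ branch, was at 21.4 and 19.8 TPM in P1, 38.7 and 36.8 TPM in P2, 26.7 and 13.3 TPM in P3, and 23.9 and 43.6 TPM in P4 hESCs. BAMBI, a receptor-like membrane protein without a kinase domain, was at 13.8 and 23.4 TPM in P1, 22.1 and 21.1 TPM in P2, 16.9 and 10.7 TPM in P3, and 16.8 and 31.1 TPM in P4 hESCs. For SMAD7, P3 overlapped with P1 and with P4 hESCs, and P4 with P2 hESCs. Its P2 and P4 samples lay above both P1 samples, and its P2 samples also above both P3 samples. For BAMBI, both P2 samples lay above both P3 samples, and all other pairs of lines overlapped. SMAD6, which preferentially blocks BMP receptors, was low, with 0.84 and 1.00 TPM in P1, 2.21 and 1.78 TPM in P2, 0.63 and 0.75 TPM in P3, and 2.01 and 2.67 TPM in P4 hESCs. MSX2 was close to the limit of detection, with 0.16 and 0.43 TPM in P1, 0.89 and 0.74 TPM in P2, 0.14 and 0.22 TPM in P3, and 0.75 and 0.56 TPM in P4 hESCs. These MSX2 levels rest on 6 to 43 counts per sample. In TPM all 8 genes had their lowest line mean in P3 hESCs, while in CPM with TMM factors SMAD7 was at 44.1 in P3 and 39.9 in P1 hESCs, with a log2 fold change of 0.14 (SE 0.34) between them, and the other 7 kept P3 as the lowest line.

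**Figure D1:**
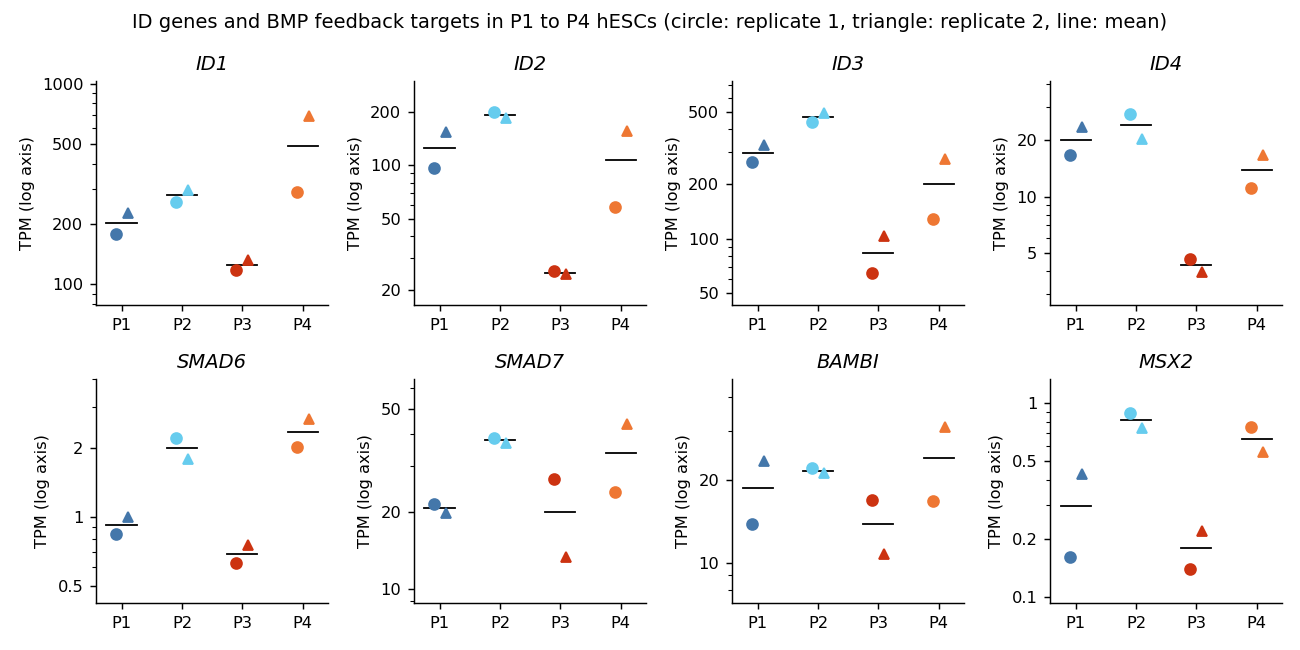
Level of each gene in TPM (log axis, a separate range for each gene) in P1 to P4 hESCs, with a circle for replicate 1, a triangle for replicate 2 and a line at the mean of the line. P3 hESCs have the lowest mean in all 8 panels, and for ID1 replicate 2 of P4 hESCs stands at 688 TPM against 289 TPM in replicate 1.

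Within P4 hESCs, replicate 2 was higher than replicate 1 for 7 of the 8 genes in TPM, MSX2 being the other. Its mitochondrial share was the lower of the pair, whereas in P1 hESCs replicate 2 had the higher share and the higher TPM for 7 of the 8 genes, SMAD7 being the exception. The part of RNA quality in the differences between replicates was not tested. In a bulk sample, fewer cells that express a gene and less of its RNA per cell cannot be told apart.

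Errors of log2 fold changes are given as standard errors (SE). The first comparison set the lines that carry the gain in the study (P3, P4) against those that do not (P1, P2), 4 samples against 4. ID2, ID3 and ID4 had negative log2 fold changes and ID1 a positive one, but none of the 8 members passed at an adjusted p under 0.05 in the quasi-likelihood test of edgeR after Benjamini-Hochberg adjustment, where 7.54% of the 19499 genes tested did. At an unadjusted p under 0.05 there were 3 members, ID2, ID3 and ID4. ID3 had a log2 fold change of -1.30 (SE 0.37, adjusted p = 0.057), which is 2.46-fold lower. ID2 had -1.23 (SE 0.40, adjusted p = 0.085) and ID4 -1.19 (SE 0.38, adjusted p = 0.077). The log2 fold change of ID1 was 0.39 (SE 0.42, adjusted p = 0.60), and it was -0.00307 on the log2(TPM + 1) scale. The feedback targets had log2 fold changes of 0.07 for SMAD6 (SE 0.36), 0.08 for SMAD7 (SE 0.27), 0.02 for BAMBI (SE 0.29) and -0.60 for MSX2 (SE 0.64). The first 3 of these changed sign under other settings. This fit counts the distance between P3 and P4 hESCs as error, and 3 members, ID2, ID3 and ID4, passed where the 4 lines were modelled separately, in DESeq2, without the filter on low counts, or without replicate 2 of P4 hESCs.

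P2 hESCs were compared with P1 hESCs, both without the gain. All 8 members had a positive log2 fold change, from 0.03 for BAMBI to 1.20 for MSX2, and none passed in edgeR's quasi-likelihood test, where 0.00513% of the genes tested did (1 gene, against 1782 at an unadjusted p under 0.05). ID3, with a log2 fold change of 0.61 (SE 0.26), and SMAD6, with 0.67 (SE 0.29), were the members under an unadjusted p of 0.05, and their adjusted p-values were 0.52 and 0.53. DESeq2 passed none of the members either.

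Between P2 and P3 hESCs, 3 of the 4 ID genes and 2 of the 4 feedback targets fell. This makes 5 of 8 members past an adjusted p under 0.05 in edgeR's quasi-likelihood test, all lower, where 11.7% of the genes tested passed and 6.67% passed as lower. ID3 fell by 2.45 on the log2 scale (SE 0.27, adjusted p = 2.1e-04), a 5.46-fold lower level in P3 hESCs. ID2 fell by 2.30 (SE 0.34, adjusted p = 0.0016) and ID4 by 2.19 (SE 0.31, adjusted p = 0.0012). These 3 genes also met the thresholds of the study, a log2 fold change beyond 1 in size with an adjusted p under 0.01, as 2.08% of the genes tested did as lower. MSX2 fell by 2.63 (SE 0.63, adjusted p = 0.020) from 43 counts in each P2 sample to 6 in each P3 sample, and SMAD6 fell by 1.01 (SE 0.30, adjusted p = 0.046). ID1 had a log2 fold change of -0.87 (SE 0.30, adjusted p = 0.079), and it passed as lower in DESeq2, in the fit of these 4 samples alone, without the filter on low counts and without either P4 sample, which makes 6 members in each. SMAD7 had a log2 fold change of -0.36 (SE 0.34) and BAMBI of -0.31 (SE 0.38). ID2, ID3 and ID4 passed without any 1 of the 8 samples, and they were the 3 members left without either P2 sample or without replicate 2 of P3 hESCs. SMAD6 and MSX2 also lost their calls without replicate 1 of P3 hESCs, and SMAD6 without replicate 2 of P1 hESCs. Whichever sample was left out, the log2 fold change was -1.09 to -0.92 for SMAD6 and -2.73 to -2.53 for MSX2. The median over the 8 members was -1.60, beside -0.0062 over all genes tested.

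Between P3 and P4 hESCs all 4 ID genes rose. In this comparison 5 of 8 members passed in edgeR's quasi-likelihood test, all higher, where 3.31% of the genes tested passed and 2.19% passed as higher. ID1 rose by a log2 fold change of 1.77 (SE 0.31, adjusted p = 0.0096), which is 3.41-fold, and it was the member that met the thresholds of the study, as 0.554% of the genes tested did as higher. ID2 rose by 1.56 (SE 0.34, adjusted p = 0.026), ID4 by 1.52 (SE 0.31, adjusted p = 0.020), ID3 by 1.42 (SE 0.26, adjusted p = 0.014) and SMAD6 by 1.29 (SE 0.30, adjusted p = 0.037). MSX2 had a log2 fold change of 2.32 (SE 0.64, adjusted p = 0.070), BAMBI of 0.57 (SE 0.38) and SMAD7 of 0.40 (SE 0.34). Without replicate 2 of P4 hESCs no member passed, and 189 of all genes passed in place of 646. The log2 fold changes were then 1.21 for ID1, 0.99 for ID2, 0.99 for ID3 and 1.35 for ID4, and 1.27 for SMAD6, whose P4 samples were alike. SMAD6 also lost its call without replicate 1 of P4 hESCs and without any 1 sample of P2 or P3 hESCs, with a log2 fold change of 1.20 to 1.37 whichever sample was left out. Without replicate 2 of P3 hESCs 1 member passed, ID3, and without replicate 1 of P3 hESCs 3 passed, ID1, ID4 and SMAD7. This comparison and the previous one share the P3 samples, so that low values in these samples enter both with opposite signs.

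Against P1 hESCs, ID2 was 4.28-fold lower in P3 hESCs, with a log2 fold change of -2.10 (SE 0.34, adjusted p = 0.0026 in edgeR's quasi-likelihood test). ID4 had -2.11 (SE 0.31, adjusted p = 0.0015) and ID3 -1.84 (SE 0.27, adjusted p = 0.0013). These were the 3 members of 8 that passed, all lower, where 8% of the genes tested did so as lower, and ID1 had a log2 fold change of -0.63 (SE 0.30, adjusted p = 0.18). In P4 hESCs against the same P1 samples 1 member passed, as higher, where 2.54% of the genes tested did so. That was ID1, with a log2 fold change of 1.14 (SE 0.30, adjusted p = 0.044), a 2.20-fold higher level, and it did not pass without replicate 2 of P4 hESCs or without any 1 of the 4 samples of P1 and P2 hESCs. ID2 had -0.54 (SE 0.33), ID3 -0.42 (SE 0.26), ID4 -0.58 (SE 0.30) and SMAD6 0.95 (SE 0.30, adjusted p = 0.080) in P4 hESCs.

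Since ID1 lies in the gained band and ID2 and ID3 do not, ID1 was set against both within each library. The TPM ratio of ID1 to ID2 was 1.85 and 1.49 in P1 hESCs, 1.31 and 1.61 in P2, 4.66 and 5.37 in P3, and 4.93 and 4.41 in P4 hESCs. The ratio of ID1 to ID3 was 0.681 and 0.693 in P1, 0.590 and 0.602 in P2, 1.84 and 1.28 in P3, and 2.26 and 2.52 in P4 hESCs. All 4 samples of P3 and P4 hESCs lay above all 4 samples of P1 and P2 hESCs in both ratios. The P3 and P4 lines, which differed 3.41-fold in ID1 itself in the edgeR test, overlapped in the TPM ratio to ID2. In the ratio to ID3 both P4 samples lay above both P3 samples. In log2 CPM (counts scaled to library size with TMM factors, not adjusted for gene length, so that only differences between samples are read), ID1 minus ID2 was 0.82 ± 0.22 (SD, n = 4) in P1 and P2 and 2.37 ± 0.14 (SD, n = 4) in P3 and P4 hESCs. This is a difference of 1.55, or 2.92-fold (exact permutation test, two-sided, p = 0.0286, which no split of 4 against 4 samples can go below, Benjamini-Hochberg adjusted p = 0.0429 over 3 such comparisons). ID1 minus ID3 was -0.75 ± 0.22 (SD, n = 4) and 0.81 ± 0.26 (SD, n = 4), a difference of 1.55, or 2.93-fold (two-sided exact permutation test, p = 0.0286, adjusted p = 0.0429). Neither difference left the range of 1.46 to 1.67 when any 1 sample was left out. P4 hESCs stood 0.20 above P3 hESCs relative to ID2 and 0.33 relative to ID3. In log2 CPM, unlike in TPM, both P4 samples lay above both P3 samples relative to ID2 (2.47 and 2.47 against 2.18 and 2.36). The permutation test takes the 8 samples as exchangeable, although they are 2 samples from each of 4 lines. It therefore does not measure the spread between lines, and an exact permutation of 2 lines against 2 could not go below p = 0.333. This limit holds for each permutation test given here.

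ID1 made up 28.0% to 32.2% of the summed TPM of the 4 ID genes in P1 and P2 hESCs and 50.1% to 60.7% in P3 and P4 hESCs. Over the same samples ID3 went from 44.8% to 49.6% of the sum down to 24.1% to 39.1%, and ID2 from 17.4% to 21.5% down to 9.32% to 13.8%. The sum itself was 555 and 734 TPM in P1, 924 and 995 TPM in P2, 213 and 263 TPM in P3, and 486 and 1134 TPM in P4 hESCs. The makeup thus separated P3 and P4 from P1 and P2 hESCs, a split that joins the gain with later passage, and the sum did not. A share also rises when the other genes fall. Between these groups the edgeR log2 fold change was 0.39 for ID1, -1.23 for ID2, -1.30 for ID3 and -1.19 for ID4.

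**Figure D2:**
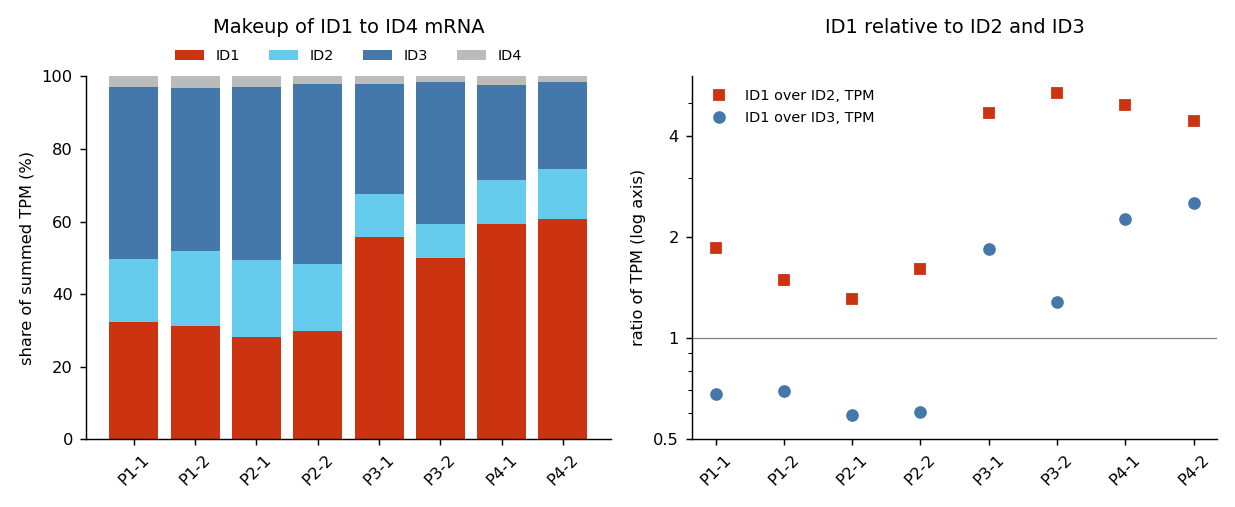
Left, share of ID1, ID2, ID3 and ID4 in their summed TPM (percent) in each of the 8 samples, and right, the TPM ratio of ID1 to ID2 (squares) and to ID3 (circles) on a log axis. The ID1 share is 28.0% to 32.2% in P1 and P2 hESCs and 50.1% to 60.7% in P3 and P4 hESCs, and the ID1 to ID3 ratio is under 1 in the first 4 samples and over 1 in the last 4.

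The RNA of 12 neighbours of ID1 in 20q11.21 was taken as a local reference, and RNA does not measure copy number. This list was chosen with earlier results of these data known, so its rise is not a separate test of the gain. According to the study, not all genes of the band were transcriptionally active in hESCs with the gain. Induced TPX2 raised BCL2L1 there at normal copy number. Of 12 neighbours 11 were tested, and all 11 were higher in P3 and P4 hESCs than in P1 and P2 hESCs by the thresholds of the study, where 1.06% of all genes tested were higher by them. Their log2 fold changes ran from 1.09 for ASXL1, a chromatin regulator, to 2.04 for TPX2, a spindle assembly factor. The others were HM13, BCL2L1, PDRG1, TM9SF4, PLAGL2, POFUT1, KIF3B, NOL4L and COMMD7, and COX4I2 had too few counts to be tested. The mean log2 CPM of the 11 was 1.51 higher in P3 and P4 than in P1 and P2 hESCs, by 1.58 in P3 and 1.48 in P4 hESCs against P1 hESCs, so that P3 and P4 hESCs were 0.09 apart. ID1 minus this mean was 1.40 and 1.96 in P1, 1.84 and 1.97 in P2, -0.36 and -0.65 in P3, and 0.90 and 1.67 in P4 hESCs. Both P3 samples lay below all others, and P4 replicate 2 lay among the samples of P1 and P2 hESCs. The difference between P3 and P4 and P1 and P2 hESCs was -1.40 (two-sided exact permutation test, n = 4 against 4, p = 0.0571, adjusted p = 0.0571 over 3 comparisons), and without replicate 2 of P4 hESCs it was -1.83 (p = 0.0286, the smallest that 4 against 3 samples allow).

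Set beside the family, ID1 relative to the neighbours had a log2 CPM difference from P1 hESCs of -2.18 in P3 and -0.39 in P4 hESCs. With no neighbours subtracted, the log2 CPM difference from P1 hESCs in P3 and P4 hESCs was -2.06 and -0.56 for ID2. It was -1.82 and -0.45 for ID3, and -2.10 and -0.54 for ID4. The measure for ID1 and that for the other genes are therefore not alike. ID1 was then set against both the mean of ID2 and ID3 and the mean of the neighbours, a measure defined after these values were seen. By this measure P3 and P4 hESCs differed from P1 and P2 hESCs by 0.04 (SE 0.12). The SE takes the 8 samples as independent and does not measure the spread between lines. The difference of 0.04 joins lines on either side, as the measure differed from P1 hESCs by -0.21 in P2, -0.25 in P3 and 0.11 in P4 hESCs. P4 and P3 hESCs were 0.36 apart, where the 2 samples of a line were at most 0.095 apart. No copy number was measured in these libraries, and the part of the gain in the level of ID1 was not tested.

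**Figure D3:**
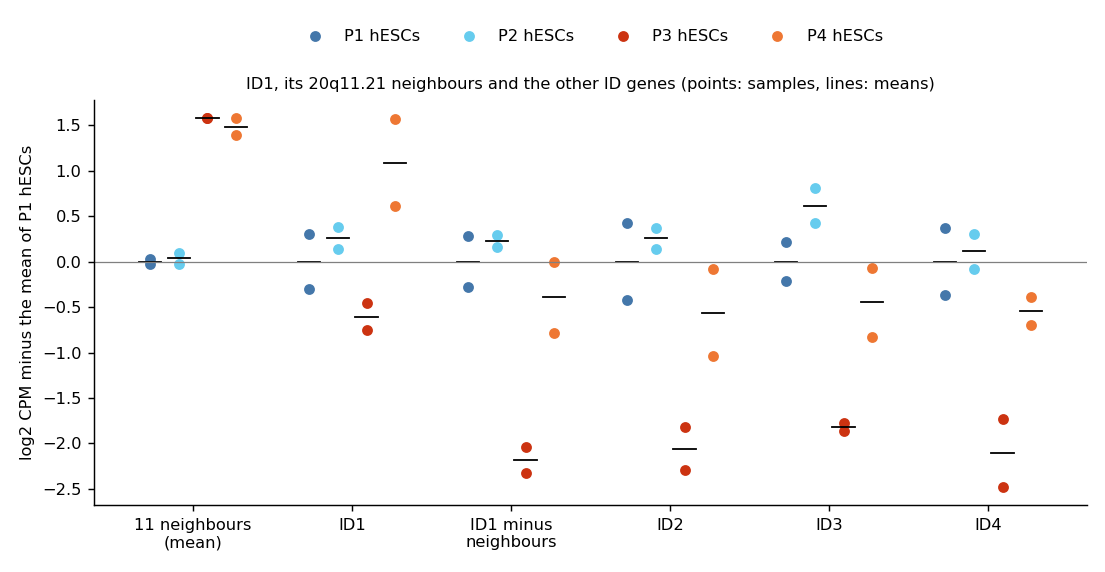
Difference from the mean of P1 hESCs in log2 CPM for the mean of 11 neighbours, ID1, ID1 minus the neighbours, ID2, ID3 and ID4. Points are the 2 samples of each line and short lines their means. The neighbours stand near 1.5 in both P3 and P4 hESCs, while ID1 minus the neighbours stands at -2.18 in P3 and -0.39 in P4 hESCs. ID2, with no neighbours subtracted, stands at -2.06 and -0.56.

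Genes whose pattern was most like ID1 were ranked by Pearson's r of log2 CPM over the 8 samples, among 11906 genes with a mean of at least 5 CPM. The 5 nearest were TRPM4 (r = 0.97), SNPH (0.97), CUL7 (0.96), MAP3K8 (0.96) and GRAMD1A (0.96), of which SNPH lies on chromosome 20 but not near ID1. BAMBI had r = 0.73, SMAD7 0.60, ID2 0.58, ID4 0.56 and ID3 0.54, and the 11 neighbours ranged from -0.20 to 0.28. For ID3 the 3 nearest were CACNA1C (0.99), KDM2A and PPP1R3F. ID2 was 30th for ID3 (0.96) and ID4 was 124th (0.92), while ID1 was 2407th. These values describe 8 samples that share 4 lines and carry no test.

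The rest of the pathway was described with lists of 72 genes, of which 64 were tested. In P3 and P4 against P1 and P2 hESCs 3 of the 64 passed in edgeR's quasi-likelihood test, beside the 7.54% of all genes. BMP2, a ligand and itself a gene on chromosome 20 outside the band, was at 7.01 and 5.59 TPM in P1, 7.73 and 7.22 TPM in P2, 1.60 and 1.49 TPM in P3, and 1.01 and 0.66 TPM in P4 hESCs. It was lower in all 4 samples of P3 and P4 hESCs, with a log2 fold change of -2.34 (SE 0.31, adjusted p = 0.0012). Unlike the ID genes, BMP2 had its lowest level in P4 hESCs. SMAD1, a transducer of the signal, rose by 0.68 (SE 0.18, adjusted p = 0.043), and the homeobox gene DLX3 fell by 1.74 (SE 0.44, adjusted p = 0.036) from levels under 1 TPM. BMP2 passed without any 1 of the 8 samples, whereas SMAD1 no longer passed without any 1 sample other than replicate 2 of P4 hESCs, and DLX3 without any 1 other than replicate 1 of P4 hESCs. None of the 11 receptors and co-receptors, 13 tested extracellular antagonists, 15 intracellular modulators or 3 E proteins passed in this comparison. Among the 64, none passed between P1 and P2 hESCs.

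Between P2 and P3 hESCs 14 of the 64 passed, 11 lower and 3 higher, beside 11.7% of all genes. The ligands held 4 of these among 8 tested, all lower, with a list median of -1.94. They were GDF7 (log2 fold change -3.57, SE 0.47), BMP8B (-2.21, SE 0.51), BMP2 (-1.98, SE 0.31) and BMP6 (-1.47, SE 0.41). BMP8B overlaps PPIE, and GDF7 was under 0.5 TPM in every sample. Of 14 other target genes 6 passed, all lower, with a list median of -1.85, or -1.53 with genes at or under 3 counts set to their bound. HAND1, a transcription factor of extraembryonic and cardiac cells, was at 1.57 and 1.85 TPM in P2 hESCs and had 0 counts in both P3 samples. This makes it at least 21.7-fold lower, but it was high in P2 hESCs only, with 0 and 4 counts in P1 and 4 and 5 in P4 hESCs. MSX1, the close relative of MSX2, was at least 7.05-fold lower. It had 25 and 26 counts in P2, but 2 and 11 in P1 hESCs. Both bounds use 3 counts per library. The others were GATA2 (log2 fold change -3.84, SE 0.87), SP5 (-2.90, SE 0.68), DLX3 (-2.38, SE 0.59) and TFAP2C (-0.87, SE 0.24). GATA2 had 34 and 2 counts and SP5 6 and 1 counts in the P3 samples. Without replicate 1 of P3 hESCs GATA2 was at -7.06, SP5 at -4.68 and DLX3 at -3.27, and without replicate 2 they were at -2.88, -2.07 and -1.80. The antagonist CHRD (1.81, SE 0.49), the type I receptor BMPR1B (1.80, SE 0.53) and the SMAD cofactor ZNF423 (0.82, SE 0.25) were higher. The secreted BMP-binding protein BMPER (-3.09, SE 0.62) was lower, with 2 and 5 counts in the P3 samples. The calls of BMPR1B, ZNF423 and TFAP2C were each lost in 6 of the 8 fits without 1 sample. BMP6, BMP8B, HAND1, MSX1, GATA2, SP5, CHRD, BMPR1B and ZNF423 were named after their values were seen. The count was 4 without either P2 sample and 8 without replicate 2 of P3 hESCs.

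Between P3 and P4 hESCs 6 of the 64 passed, 5 higher and 1 lower, beside 3.31% of all genes. GDF7 rose by 2.84 (SE 0.48, adjusted p = 0.0086 in edgeR's quasi-likelihood test), GDF6 by 2.77 (SE 0.67, adjusted p = 0.043) and BMP7 by 1.40 (SE 0.29, adjusted p = 0.025). BMP7 was the abundant one of these ligands, at 5.55 TPM or less in P3 and 10.4 TPM or more in P4 hESCs. BMPER rose by 3.35 (SE 0.62) and TFAP2C, which was at 2.45 and 3.22 TPM in P3 and 6.50 and 5.63 TPM in P4 hESCs, by 1.01 (SE 0.25). In the P3 samples GDF6 had 5 and 3 counts and BMPER 2 and 5 counts. The calls of GDF6 and TFAP2C were each lost in all 8 fits without 1 sample. Their log2 fold changes were then 2.37 to 3.26 and 0.745 to 1.23. STMN2, which encodes a microtubule regulator of neurons, fell by 1.75 (SE 0.36). Of the 8 ligands 7 had a positive value, BMP2 being the other with -0.99 (SE 0.32), and the count was 0 without replicate 2 of P4 hESCs and 3 without replicate 2 of P3 hESCs. BMP4, the ligand with the highest level in P4 hESCs after BMP7, was at 5.12 and 6.36 TPM in P3 and 8.27 and 11.8 TPM in P4 hESCs, and did not pass in this comparison. Against P1 hESCs, BMP4 was higher in P4 hESCs by a log2 fold change of 1.08 (SE 0.27, adjusted p = 0.037), a call lost without replicate 2 of P4 hESCs or any 1 sample of P1 or P2 hESCs, while BMP2 was lower by -2.86 (SE 0.33, adjusted p = 2.8e-04). BMP4 was named after its values were seen.

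**Figure D4:**
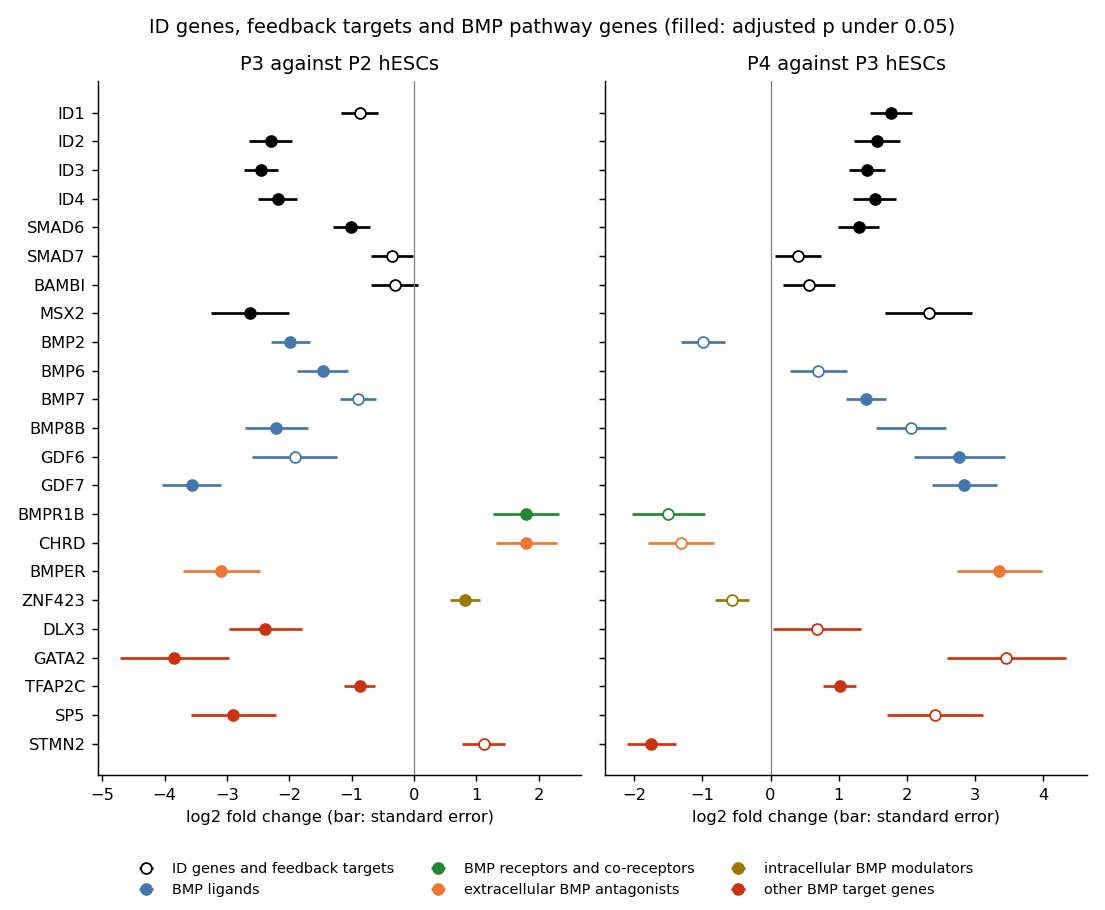
Log2 fold changes with standard errors in P3 against P2 hESCs (left) and P4 against P3 hESCs (right) for the 8 members and for each pathway gene that passed in either comparison, coloured by role. Filled points have an adjusted p under 0.05, and genes at or under 3 counts in both samples of a line are left out. ID2, ID3 and ID4 stand between -2.45 and -2.19 on the left and between 1.42 and 1.56 on the right, and both panels share the P3 samples.

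The E proteins that ID proteins bind were abundant. TCF3 was at 79.6 to 145 TPM over the 8 samples, and neither TCF3, TCF4 nor TCF12 passed in any of these comparisons, with log2 fold changes between -0.41 and 0.43. A list of 12 markers of the trophoblast-like or amnion-like cells that BMP induces summed to 31.2 to 42.7 TPM in P1, 39.8 to 41.3 TPM in P2, 14.8 to 19.1 TPM in P3 and 15.6 to 22.0 TPM in P4 hESCs. Of the 12, 7 were under 1 TPM in all samples, the hormone gene CGA was at 0.04 TPM or less, and IGFBP3 and KRT7 made up most of the sum. HAND1, TFAP2A and GATA3 are on this list and also among the target genes. IGFBP3 fell by 1.67 between P1 and P2 and P3 and P4 hESCs (SE 0.36, adjusted p = 0.018 in edgeR's quasi-likelihood test), from 13.3 to 24.5 TPM down to 2.38 to 7.06 TPM, and it did not pass without replicate 2 of P1 hESCs. From P3 to P4 hESCs the sum changed little, as KRT7 was lower and IGFBP3 higher in P4 hESCs. Single genes of the list moved more than the sum. Of 8 tested, 7 had a negative log2 fold change in P3 against P2 hESCs (list median -1.19). In P4 against P3 hESCs 6 of the 8 had a positive one (list median 0.73), and none passed. The part of such cells in the levels of the members was not tested.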

How the data were processed

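RNA-seq of P1, P2, P3 and P4 hESCs (2 samples per line) was analysed. The authors made stranded mRNA libraries and deposited, per sample and gene, an expected count from RSEM, which is not normalized, and a TPM value, which adjusts for effective length. The submitters' processing notes name Trim Galore, FastQC, STAR 2.7.3a, RSEM 1.3.3 and GRCh38, and the annotation release and the strand setting of the counting are not given in the sources used here.

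Expected counts were rounded and tested in R 4.3.3 with edgeR 4.0.16 (TMM, filterByExpr by line, quasi-likelihood F test, Benjamini-Hochberg adjustment over 19499 of 60675 genes). The 4 samples of P3 and P4 and the 4 of P1 and P2 hESCs formed a 2-group model, and single lines in a 4-group model. A gene passed at an adjusted p under 0.05. The standard error is the size of the log2 fold change over the square root of F. ID1 was set against 11 neighbours, ID2 and ID3 by two-sided exact permutation tests of log2 CPM (prior count 0.5). Groups came from the sample labels, and the replicate numbers were not used as pairs. Alternatives were DESeq2 1.42.0, its size factors in edgeR, no filter, the 4-group model or the 4 samples of a comparison alone, limma 3.58.1 on log2(TPM + 1) and log2(TPM + 0.1), no mitochondrial genes, a replicate block, the thresholds of the study, the median of the neighbours or TPX2 and BCL2L1 alone as the reference for ID1, and leaving out each sample. Scripts were tested on simulated data. Figures and permutation tests used Python 3.11.15, pandas 2.3.3, scipy 1.17.1 and matplotlib 3.10.9.

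Symbols came from a gene name table that matched 56558 identifiers, positions from GENCODE release 29, and start-site windows from RefSeq GRCh38.p14, where each of the 8 members matched. The members, gene lists and tests were chosen with earlier results of these data known. All members were named, with pathway genes past the test in P3 and P4 against P1 and P2 or in P4 against P3 hESCs, list genes at the ends of ranges, the tested neighbours of ID1, and the 5 and 3 genes most like ID1 and ID3. A count of 3 lies between 0.0787 and 0.112 CPM of the raw totals. Such floors cover counting error only.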

Additional observations from a re-analysis of the deposited data

Results flagged for a closer look

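In 5 of the 8 members, P3 and P4 hESCs, the lines with the gain, differed from each other in their distance from the earlier lines, by the test of P4 against P3 hESCs in edgeR's quasi-likelihood model with Benjamini-Hochberg adjustment. The log2 fold change was 1.77 for ID1, 1.56 for ID2, 1.42 for ID3, 1.52 for ID4 and 1.29 for SMAD6, each higher in both P4 samples than in both P3 samples. Without replicate 2 of P4 hESCs none of the 5 passed, and the log2 fold changes were 1.21 for ID1, 0.99 for ID2, 0.99 for ID3, 1.35 for ID4 and 1.27 for SMAD6, while the count over all genes went from 646 to 189. With 2 samples a line, no check for a sample far from its own line was possible.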

How the results depend on the processing

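The depth limits SMAD6 and MSX2, at 6 to 210 counts per sample, more than the ID genes, and with 2 samples a line no exact test of 2 lines can go below p = 0.333. Of 202 summary values under alternatives 142 were unchanged in call and size, as were 1213 of 1478 values of single genes. The cause of the changes was not tested.

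ID2, ID3 and ID4 passed in P3 and P4 against P1 and P2 hESCs, making 3 members, in the 4-group model, in DESeq2 and without a filter, and 1 (ID3) in both limma fits. Over all genes, 3093 of 19499 passed there in the 4-group model, 2710 of 34031 in DESeq2 and 1851 of 34063 without a filter. The limma fits passed 856 of 19499 with log2(TPM + 1) and 814 with log2(TPM + 0.1). P3 against P2 hESCs gave 6 members, with ID1 added, in DESeq2, in the fit of these lines alone and without a filter, and 3 with log2(TPM + 0.1) and by the thresholds of the study. The first 3 settings passed 2943 of 34063, 2465 of 19499 and 3424 of 34063 of all genes. With log2(TPM + 0.1) 962 of 19499 passed, and 667 of 19499 met the thresholds of the study. P4 against P3 hESCs gave 3 and 2 in limma with pseudocounts of 0.1 and 1, and 1 by the thresholds of the study. All genes past these numbered 213, 169 and 159 of 19499. P4 against P1 hESCs gave 2 members in DESeq2, where 1714 of 34063 genes passed. It gave 0 in the fit of these lines alone, in both limma fits and by the thresholds of the study. Pathway genes past the test in P3 and P4 against P1 and P2 hESCs numbered 10 in the 4-group model, 7 in DESeq2, and 1 in both limma fits and by the thresholds of the study. The 4-group model tested 64 of them, and its count is close to the share of all genes given above. By the thresholds of the study 429 of all 19499 genes passed. In P2 against P1 hESCs 1 pathway gene passed in the fit of these lines alone, DESeq2, both limma fits and without a filter. All genes past the test there numbered 186 of 19499 in the fit of these lines alone and 84 of 34063 in DESeq2. Without a filter they numbered 479 of 34063. In P3 against P2 hESCs pathway genes numbered 8 with log2(TPM + 1), 23 without a filter and 4 by the thresholds of the study. Of all genes, 877 of 19499, 3424 of 34063 and 667 of 19499 did so. In P4 against P3 hESCs pathway genes numbered 3 in the fit of these lines alone, and 1 and 0 in limma with 0.1 and 1. They numbered 17 without a filter and 1 by the thresholds of the study. The fit of these lines alone passed 310 of all 19499 genes, and the fit without a filter 1722 of 34063.

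Values near 0 changed sign. In P3 and P4 against P1 and P2 hESCs they were -0.00427 and -0.00307 for ID1, -0.077 and -0.015 for SMAD6, -0.18 and -0.17 for SMAD7, and -0.17 and -0.16 for BAMBI with log2(TPM + 0.1) and log2(TPM + 1), and -0.027 for SMAD6 and -0.010 for BAMBI in the 4-group model. SMAD7 in P3 against P1 hESCs was -0.13 and -0.12 in limma. TPM shifted the median of all genes, most in P3 against P2 hESCs, by -0.31 and -0.21 with 0.1 and 1, and by 0.15 and 0.098 in P4 against P3 hESCs.

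Leaving out each sample gave ranges, with a lone sample of a line taken to vary like the others. Members past the test ranged from 0 to 3 in P3 and P4 against P1 and P2, 3 to 6 in P3 against P2, 0 to 5 in P4 against P3, and 0 to 1 in P4 against P1 hESCs. Pathway genes ranged from 1 to 6, 4 to 18 and 0 to 6 in the first 3 of these and 0 to 1 in P2 against P1 hESCs. By list in the first, they were 1 to 4 for ligands, 0 to 1 for SMADs, 0 to 1 for intracellular modulators and 0 to 2 for other targets. ID1 relative to its neighbours ranged from -1.83 to -1.06. Log2 fold changes that changed sign ranged, in P3 and P4 against P1 and P2 hESCs, from -0.23 to 0.65 for ID1, -0.15 to 0.27 for SMAD6, -0.042 to 0.32 for SMAD7 and -0.21 to 0.24 for BAMBI. In P2 against P1 hESCs they ranged from -0.011 to 0.57 for ID1, -0.13 to 0.68 for ID2, -0.22 to 0.50 for ID4 and -0.37 to 0.61 for BAMBI. In P3 against P2 they ranged from -1.22 to 0.19 for SMAD7 and -1.002 to 0.17 for BAMBI, and in P4 against P3 from -0.14 to 1.26 for SMAD7. Against P1 hESCs they ranged in P3 from -0.72 to 0.69 for SMAD7 and -0.97 to 0.31 for BAMBI, and in P4 from -0.14 to 0.87 for BAMBI.

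The replicate numbers share only a number, as the correlations of their deviations between lines ran from -0.082 to 0.12. With the replicate block, P3 against P2 hESCs kept ID2, ID3, ID4 and MSX2, and ID1 relative to ID2 and to ID3 stayed at 1.55 in the exact permutation test within blocks, with p = 0.0556, the smallest it allows.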

Other observations

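A pair of genes from the mesendoderm list moved in opposite directions around P3 hESCs, and both were named after their values were seen. Of the 8 genes on that list 5 were tested. Against P2 hESCs, 2 were higher and 3 lower in P3 hESCs, of which 1 higher and 2 lower passed. TBXT went down along with EOMES, from 0.42 and 0.61 TPM in P2 to 0.03 and 0.15 TPM in P3 hESCs. MIXL1 (log2 fold change -0.83, SE 0.52) was lower and CXCR4 (1.26, SE 0.52) higher, and neither passed. EOMES had 3 counts in each P3 sample, the count used above as a floor. EOMES, a T-box factor of early mesendoderm, was at 0.54 and 0.28 TPM in P1, 1.52 and 0.95 TPM in P2, 0.03 and 0.04 TPM in P3, and 0.26 and 0.32 TPM in P4 hESCs. FOXA2, a forkhead factor of endoderm, was at 0.53 and 0.47 TPM in P1, 0.37 and 0.32 TPM in P2, 2.72 and 3.63 TPM in P3, and 0.26 and 0.08 TPM in P4 hESCs. FOXA2 was thus highest in the line in which the members had their lowest means in TPM, and its log2 fold change was 3.45 (SE 0.46, adjusted p = 7.7e-04 in edgeR's quasi-likelihood test) against P2 hESCs.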
